A study of Mus musculus with 19 samples.

Results

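TRBJ1-1 is the joining (J) segment that encodes the end of the CDR3 in a share of mouse T cell receptor beta chains, and it was followed here through 19 repertoire libraries of sorted CD4+ T cells. Its members were all table entries that name TRBJ1-1 as their J segment, an entry being a row that pairs a CDR3 in amino acids with its variable segment (TRBV), its TRBJ segment and a number of reads. They numbered 239658 of 2146950 entries over all libraries, which were 167524 of 1505703 distinct entries, and they held 21236832 of 145647255 reads. The segment was chosen by its measured share of reads, which earlier results of these data showed to differ between node sites and between heart and node. Both of those contrasts are therefore described without a test, and tests are given only for treatments compared within a site.

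All mice were of the BALB/c strain, and T cells were taken at day 7 after surgery or injection. Mediastinal lymph nodes, which drain the heart, came from mice after thoracotomy with ligation of the left anterior descending coronary artery, a model of myocardial infarction (MI node, n = 3), or after thoracotomy alone (sham node, n = 4). CD4+ T cells were also sorted from the infarcted heart (heart, n = 3). Axillary lymph nodes came from mice given, under the skin, Titermax Gold adjuvant alone (adjuvant node, n = 4), 1 mg of mouse heart protein extract in that adjuvant (heart extract node, n = 3) or 100 µg of porcine cardiac myosin in it (myosin node, n = 2). Operated mice received buprenorphine after surgery, and no adjuvant is given for them, so that the node sites also differed by procedure. Node libraries were made from 500000 sorted cells and held 7534295 to 9235800 reads. Heart libraries were made from 5000 sorted cells and held 2426715 to 5126910 reads. Whether each library stands for 1 animal is not labelled, and the p-values below rest on the spread among libraries, which may be technical. Only receptor transcripts were amplified, so no marker of another cell type could be read.

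A beta chain gene is assembled in the thymus by joining a V, a D and a J segment, with bases trimmed and added at both joints. The CDR3 spans these joints and is the loop that contacts the peptide presented by an MHC molecule, while the J segment supplies its last residues. In the GRCm38.p6 annotation of RefSeq, TRBJ1-1 is the first J segment after TRBD1 and opens the TRBJ1 cluster, with TRBD2 and the TRBJ2 cluster lying beyond it. A gene that uses TRBJ1-1 can take its D segment only from TRBD1. An entry's reads reflect the number of cells, the receptor RNA per cell and the amplification by gene-specific primers. These parts, such as fewer cells of a clone and less RNA per cell, cannot be told apart here.

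The CDR3s below are printed as deposited, lacking the first cysteine and the last phenylalanine of the loop. The first 9 are the 3 TRBJ1-1 entries with most reads in each heart, shown because single entries made up much of the heart's TRBJ1-1 reads. The next is the most read TRBJ1-1 entry of any node, and the last 5 are those with the highest mean share among the entries listed in all 16 nodes.
Heart 1, TRBV14: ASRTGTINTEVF
Heart 1, TRBV19: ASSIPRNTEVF
Heart 1, TRBV19: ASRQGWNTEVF
Heart 2, TRBV14: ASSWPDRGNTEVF
Heart 2, TRBV14: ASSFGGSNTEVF
Heart 2, TRBV4: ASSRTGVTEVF
Heart 3, TRBV14: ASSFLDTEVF
Heart 3, TRBV1: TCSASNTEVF
Heart 3, TRBV5: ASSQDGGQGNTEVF
MI node 3, TRBV19: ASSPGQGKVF
All nodes, TRBV4: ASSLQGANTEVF
All nodes, TRBV5: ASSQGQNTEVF
All nodes, TRBV5: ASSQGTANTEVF
All nodes, TRBV5: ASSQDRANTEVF
All nodes, TRBV4: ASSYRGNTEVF
Of these 15 CDR3s, 12 close with the residues NTEVF, the most common last 5 residues among TRBJ1-1 reads.

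TRBJ1-1 was the most used of 11 listed TRBJ segments in 14 of 16 nodes, and ranked 2 and 3 in the other nodes. It held 15.0%, 12.9%, 13.5% and 11.9% of reads in sham nodes 1 to 4, and 13.9%, 14.4% and 14.4% in MI nodes 1 to 3. In the axillary nodes it held 18.1%, 15.5%, 15.8% and 15.5% after adjuvant alone, 15.3%, 15.8% and 13.99% after heart extract, and 15.0% and 15.9% after myosin. The 3 hearts gave 11.7%, 14.3% and 11.02%. Adjuvant node 1 stood highest of all libraries, sham node 4 was the lowest node, and hearts 1 and 3 lay below every node. The 95% Wilson interval ran from 18.02% to 18.08% in adjuvant node 1 and from 11.66% to 11.75% in heart 1, the library with fewest reads; PCR reads without molecular identifiers are not independent molecules, so such intervals cover counting error only.

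**Figure D1:**
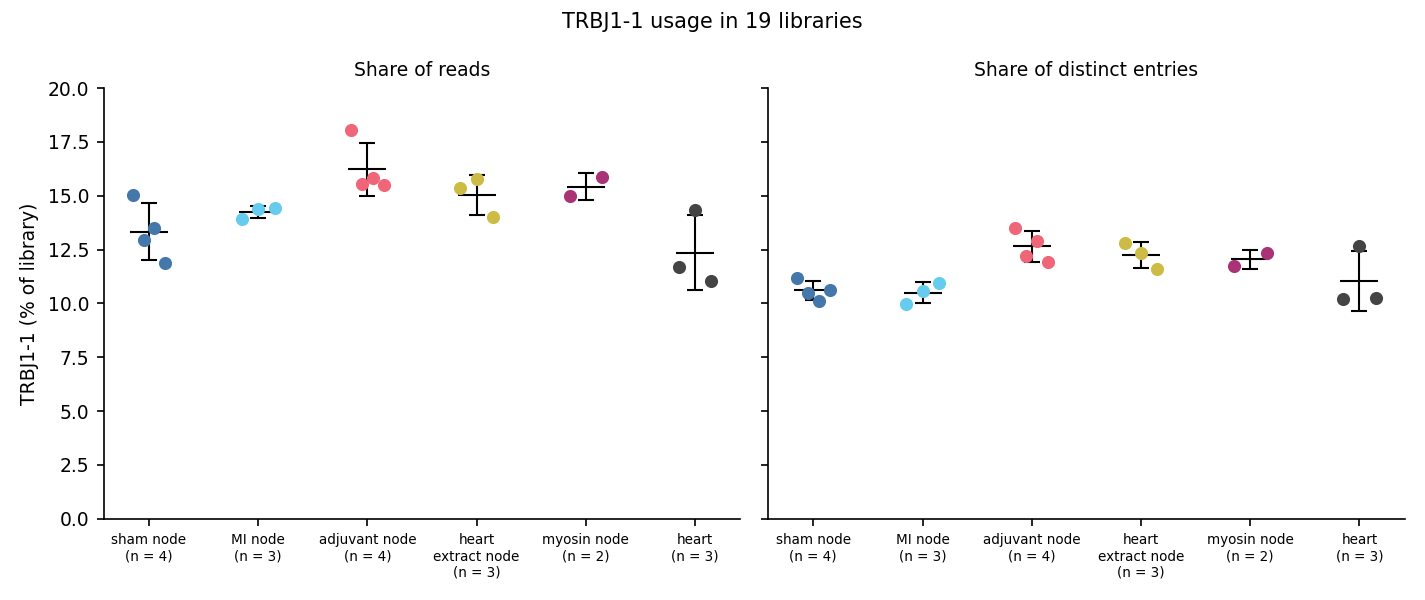
TRBJ1-1 as a percentage of each library's reads (left) and of its distinct entries (right), for 6 groups; points are libraries, the long bar is the mean and the whiskers are 1 SD. All 4 adjuvant nodes lie above all 4 sham nodes in both panels, and the 3 hearts span 11.02% to 14.3% of reads.

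By group mean the order of the read share ran from adjuvant node (16.2% ± 1.23, SD, n = 4) through myosin node (15.4% ± 0.637, n = 2), heart extract node (15.0% ± 0.940, n = 3), MI node (14.2% ± 0.276, n = 3) and sham node (13.3% ± 1.32, n = 4) to heart (12.4% ± 1.74, n = 3). The ranges of all 5 neighbouring pairs in this order overlapped. Those of the ends of the node order did not: every adjuvant node lay above every sham node, with means 2.89 percentage points apart.

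Counted by distinct entries, so that every entry weighs the same, TRBJ1-1 made up 11.2%, 10.5%, 10.1% and 10.6% of the sham node entries and 13.5%, 12.2%, 12.9% and 11.9% of the adjuvant node entries. MI nodes gave 9.98%, 10.6% and 10.9%, heart extract nodes 12.8%, 12.4% and 11.6%, and myosin nodes 11.7% and 12.4%. On this count all 9 axillary nodes lay above all 7 mediastinal nodes, whereas on reads the sites overlapped. The count includes entries of 2 to 9 reads, and in each class of more reads, described below, the sites overlapped. The hearts gave 10.2%, 12.7% and 10.2%, with hearts 1 and 3 inside the mediastinal range and heart 2 above it. In 19 of 19 libraries the read share was above the entry share. Put otherwise, a TRBJ1-1 entry held more reads on average than an entry with another J segment (a mean over nodes of 104.9 reads ± 51.1 against 80.8 ± 42.8, n = 16).

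The site difference was not even over abundant and rare entries. Entries of 2 to 9 reads used TRBJ1-1 in 8.82% to 12.4% of cases in the 7 mediastinal nodes and in 12.8% to 16.1% in the 9 axillary nodes, 2 ranges that did not overlap. Entries of 10 to 99 reads used it in 8.51% to 10.8% and 9.08% to 10.2%, and entries of 100 or more but under 1000 reads in 10.3% to 17.4% and 10.5% to 15.1%. In these middle classes the sites overlapped, and the sham and adjuvant means were close, at 9.06% ± 0.582 and 9.34% ± 0.206 in the lower of them. Among entries of 1000 or more reads TRBJ1-1 reached 23.1%, 16.4%, 24.7% and 14.5% in sham nodes 1 to 4 and 27.3%, 31.5%, 20.9% and 30.1% in adjuvant nodes 1 to 4. Adjuvant node 3 thus lay within the sham range in this class. The class held unlike parts of the libraries, 0.0327% to 2.33% of sham node entries and 0.269% to 3.05% of adjuvant node entries. By rank, TRBJ1-1 made up 14.8% to 22.5% of the 1000 most abundant entries in sham nodes and 22.4% to 27.9% in adjuvant nodes. Among the 40000 most abundant it made up 9.79% to 14.45% and 11.8% to 12.9%. Both pairs of ranges overlapped. The part of PCR and sequencing errors in the entries of 2 to 9 reads was not tested.

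Within every node, the most abundant entries were the richest in TRBJ1-1. Its share was higher among entries of 100 or more but under 1000 reads than among those of 10 to 99 in 16 of 16 nodes, and higher still among those of 1000 or more in 16 of 16. The hearts did not follow this order. Their entries of 1000 or more reads used TRBJ1-1 in 8.75%, 10.9% and 9.499% of cases, which was below their entries of 10 to 99 reads in 3 of 3 hearts (9.87%, 16.1% and 11.1%). Because heart libraries came from 5000 cells, a class of reads there stands for far fewer cells than in a node, and cell number and tissue cannot be told apart.

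**Figure D2:**
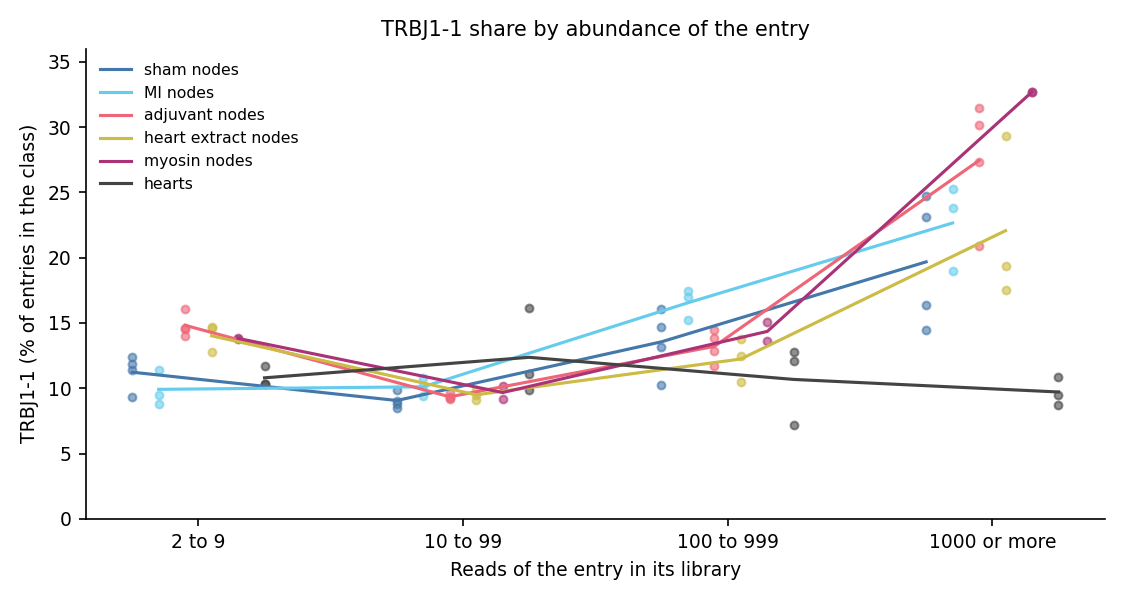
Percentage of entries that use TRBJ1-1 (vertical axis) in 4 classes of reads per entry (horizontal axis); points are libraries and lines join group means. Node lines climb from the class of 10 to 99 reads to that of 1000 or more, where the nodes span 14.5% to 32.7%, while the hearts stay between 8.75% and 10.9% in the highest class.

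The neighbours of TRBJ1-1 in its cluster differed between the sites in the same direction. The adjuvant mean was above the sham mean for 5 of 5 TRBJ1 segments and below it for 6 of 6 TRBJ2 segments. Ranges were apart for 6 of 11 segments, which include TRBJ1-1, TRBJ1-3 (8.70% ± 0.239 against 7.87% ± 0.311, n = 4 each) and TRBJ1-4 (13.4% ± 0.467 against 11.8% ± 0.862) on the higher side. TRBJ1-2 stood at 4.86% ± 0.100 against 4.40% ± 0.292 and TRBJ1-5 at 2.44% ± 0.147 against 2.25% ± 0.228, with overlapping ranges. As a share of the TRBJ1 cluster's own reads, TRBJ1-1 held 35.5% ± 1.21 in adjuvant nodes and 33.6% ± 1.08 in sham nodes, and here the ranges overlapped (34.4% to 37.2% and 32.5% to 34.6%). The site difference within the cluster was 1.93 points.

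Over the 16 nodes the segments whose read share ran most like that of TRBJ1-1 were TRBJ1-3 (Pearson r = 0.85) and TRBJ1-4 (r = 0.83), and the least like was TRBJ2-5 (r = -0.93). Among V segments TRBV17 (r = 0.87) and TRBV4 (r = 0.79) were most like it, and TRBV16 (r = -0.71) least. Within the 7 mediastinal nodes alone these values were 0.80, 0.94, -0.92, 0.65, 0.19 and -0.39 for these 6 segments in this order, and within the 9 axillary nodes 0.64, 0.39, -0.89, 0.80, 0.74 and -0.16. Within sites the values of TRBV16 were thus closer to 0 than over all nodes, as were that of TRBV4 among the mediastinal and that of TRBJ1-4 among the axillary nodes. These correlations are descriptions across libraries of 2 sites, and shares of a library sum to a fixed total, which pushes some of them below 0.

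The V partners of TRBJ1-1 were led by TRBV19, the segment of the Vβ6 family. It carried 25.2% of its reads on average over the nodes, TRBV5 19.7%, TRBV14 12.5%, TRBV4 10.6%, TRBV1 10.4% and TRBV13-2 3.34%. Pairing was uneven, however. TRBJ1-1 took 21.4% of TRBV16 reads, 18.9% of TRBV15 reads, 18.6% of TRBV1 reads and 17.5% of TRBV4 reads, but 8.28% of TRBV3 reads, 9.61% of TRBV2 reads and 10.6% of TRBV13-2 reads (means of 16 nodes). In 16 of 16 nodes its share within TRBV19, TRBV4, TRBV1, TRBV16 and TRBV15 was above its share of the whole library. For 8 of 22 V segments, TRBV13-2, TRBV20 and TRBV31 among them, it was below in every node. The part of primer efficiency in these shares of reads was not tested.

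The site difference was present within single V segments. TRBJ1-1 took 16.6%, 13.8%, 15.9% and 13.3% of TRBV4 reads in sham nodes 1 to 4 and 23.6%, 18.7%, 22.8% and 19.3% in adjuvant nodes 1 to 4. Of TRBV1 reads it took 18.7%, 15.4%, 16.5% and 14.5% in the sham nodes and 24.3%, 19.2%, 20.3% and 21.3% in the adjuvant nodes. Neither pair of ranges overlapped, and the means differed by 6.18 and 5.02 points. Among the 16 V segments with at least 1000 TRBJ1-1 reads in every node, the adjuvant mean was higher for 16, with a median difference of 2.52 points, and ranges were apart for 6, all with the adjuvant nodes higher. Over all 22 V segments it was higher for 20, the exceptions being the rarely used TRBV12-2 and TRBV24. The same counts within V segments were not made for the other TRBJ segments, so they do not set TRBJ1-1 apart. Over whole libraries, ranges were apart for 3 of 11 TRBJ segments with adjuvant nodes higher and for 3 with sham nodes higher. With each library weighted to the V composition of the sham nodes, TRBJ1-1 stood at 13.3% ± 1.33 in sham nodes and 16.2% ± 1.24 in adjuvant nodes, close to the unweighted values.

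**Figure D3:**
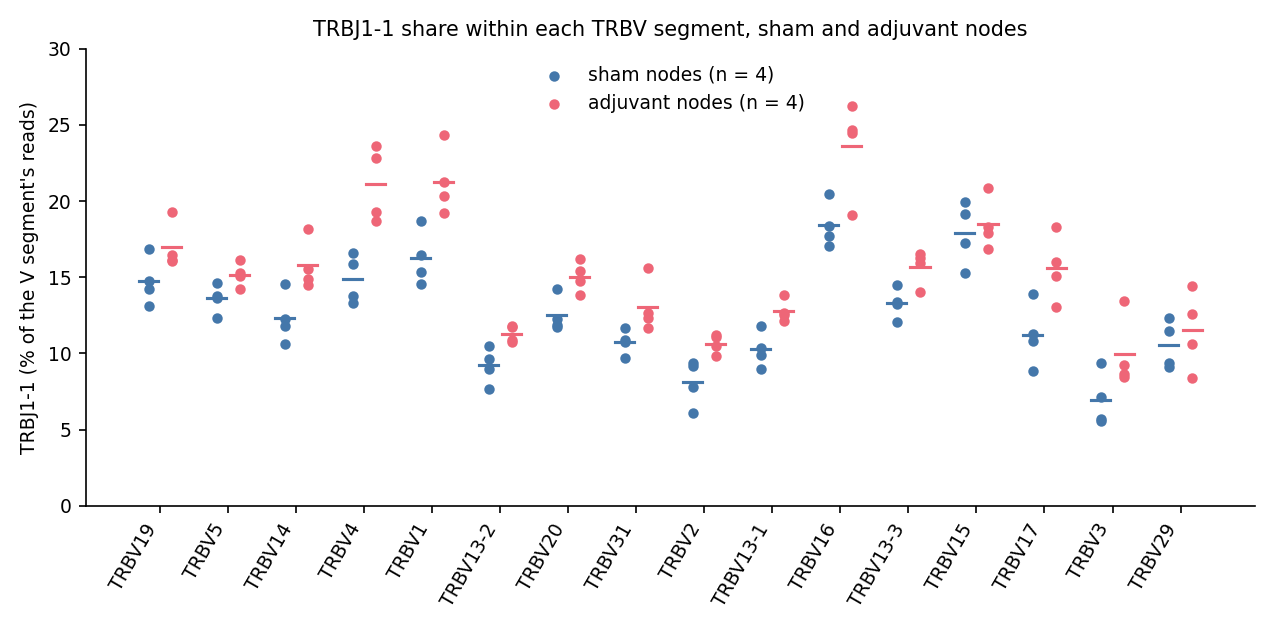
TRBJ1-1 as a percentage of the reads of each of 16 TRBV segments, ordered by their share of TRBJ1-1 reads; points are the 4 sham and 4 adjuvant nodes and bars are means. The adjuvant mean is the higher in all 16, with the widest gap for TRBV4 (6.18 points).

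The end of the CDR3 holds what the joint left of the J segment. Over all libraries 59.97% of TRBJ1-1 reads closed with NTEVF, followed by DTEVF (9.81%), GTEVF (6.85%) and YTEVF (1.93%), in which the first residue of that run was replaced. In the nodes the complete run made up 59.99% ± 1.34 of TRBJ1-1 reads (SD, n = 16), TEVF without the asparagine 29.3% ± 1.07, EVF 8.34% ± 0.529, and VF alone 2.19% ± 0.528. The sham and adjuvant nodes differed little, with 59.8% ± 0.946 and 59.99% ± 0.877 complete. MI node 3 had the highest share of VF ends among the nodes, 3.93%, and heart 3 the highest of all, 4.67%. Both list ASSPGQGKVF, which keeps only VF, with 21935 reads in MI node 3 (0.240% of the library, Wilson interval 0.236% to 0.243%) and 16504 in heart 3.

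TRBJ1-1 gave short CDR3s. Its reads had a mean CDR3 length of 11.5 residues ± 0.0304 in the nodes against 12.2 ± 0.0217 for reads with other J segments, and were shorter in 19 of 19 libraries. The most frequent length was 12 residues, except in adjuvant nodes 1 and 3 and heart extract node 3, where it was 11, and heart 3, where 52.3% of TRBJ1-1 reads had 10. In the residue before the complete J end, alanine led in the nodes with 34.0% ± 1.02 of reads (n = 16).

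Motifs of TRBD1 were found beside both J clusters, and those of TRBD2 mainly beside TRBJ2. The TRBD1 motif GQG was found in 4.95% ± 0.535 of TRBJ1-1 node reads and 3.02% ± 0.1505 of TRBJ2 reads, and DRG, also of TRBD1, in 3.83% ± 0.489 and 2.96% ± 0.134 (n = 16 nodes), with DRG lower beside TRBJ1-1 than beside TRBJ2 in heart extract node 3 (2.79% and 2.88%). GLG and DWG, motifs of TRBD2, were found in 0.124% ± 0.0577 and 0.240% ± 0.0960 of TRBJ1-1 reads, against 3.77% ± 0.250 and 5.32% ± 0.248 of TRBJ2 reads. TRBD2 motifs were thus rare beside TRBJ1-1 in every node. The letters were searched anywhere in the deposited CDR3, and a match is a description of letters, since added bases can also encode them.

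The first tested comparison asked whether infarction altered TRBJ1-1 use in the heart-draining node. The MI nodes lay between 13.9% and 14.4% of reads and the sham nodes between 11.9% and 15.0%, so that the MI range fell inside the sham range. The fitted change on the log2 scale was 0.095 (SE 0.0803) and did not pass (edgeR adjusted p = 0.330). Of the 11 TRBJ segments tested, 0% were called by edgeR, with 3 at an unadjusted p under 0.05, while DESeq2 called 1 segment, which was not TRBJ1-1. Without sham node 1, the sham node with most TRBJ1-1, the change was 0.16 with an edgeR adjusted p of 0.0328, and edgeR then called 8 of 11 segments. Counted as distinct entries it was -0.013 (edgeR adjusted p = 0.941).

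By V partner, the value after MI was higher for 19 of 22 TRBJ1-1 pairs and lower for 3, with a median of 0.072 on the log2 scale, beside -0.028 over all 239 V-J pairs. EdgeR called 0 of these 22 pairs and 0% of all pairs, the unadjusted p was under 0.05 for 0 of the 22 and 5 of all, and DESeq2 called 0. Among the 6 main partners TRBV4 stood at 0.15 (SE 0.133) and TRBV5 at 0.073 (SE 0.0641), each with an edgeR adjusted p of 0.993. The form of the TRBJ1-1 entries also gave no call. The share of distinct entries differed by -0.0962 points, the mean length by -0.0111 residues, the complete J end by -0.210 points and the share of TRBJ1-1 reads in its 20 most abundant entries by -1.27 points (4 measures on 7534295 drawn reads, MI minus sham). By exact permutation, two-sided, these gave p = 0.743, 0.743, 0.914 and 0.457 in this order, each 0.914 after adjustment. With 35 splits of 3 against 4 libraries the smallest p is 0.0286 before adjustment. A single measure at that value could not pass 0.05 after adjustment over the 4, so the lack of a call cannot show that the groups are alike.

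Immunization was compared with adjuvant alone to ask whether heart antigens altered TRBJ1-1 use in the axillary node. After heart extract TRBJ1-1 held 13.99% to 15.8% of reads, against 15.5% to 18.1% after adjuvant. The change was -0.11 on the log2 scale (SE 0.0806, adjusted p = 0.653 by edgeR). After myosin, with 15.0% and 15.9%, it was -0.073 (SE 0.0915, edgeR adjusted p = 0.985). In each of these comparisons edgeR called 0% of the 11 TRBJ segments, no unadjusted p was below 0.05 (0 of 11), and DESeq2 also made 0 calls. The comparisons share their control nodes, and the adjuvant volume, for which the labels give either of 2 values without assigning them, was not tested.

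Of the TRBJ1-1 pairs, 8 of 22 had a higher value after heart extract and 14 a lower one, with a median of -0.089 on the log2 scale, beside 0.00018 over all 239 pairs. EdgeR called 0 pairs (0%), and DESeq2 called 0 with TRBJ1-1 and 1 of all. An unadjusted p under 0.05 was found for 4 TRBJ1-1 pairs and 23 pairs in all. The 4, named after their values were seen, were TRBV20 (-0.37, SE 0.119, edgeR adjusted p = 0.313), TRBV4 (-0.37, SE 0.134, adjusted p = 0.372), TRBV5 (-0.17, SE 0.0644, adjusted p = 0.383) and TRBV23, which had no listed TRBJ1-1 read in the 3 heart extract nodes (adjusted p = 0.503). The pair with TRBV23 was rare, with 667 reads over all nodes, and adjuvant node 1 listed none either. After myosin 8 pairs had a higher and 14 a lower value, with a median of -0.056 beside 0.0098 over all pairs. EdgeR called 0 of them (0%), the unadjusted p was under 0.05 for 0 of the 22 and 7 of all, and DESeq2 made 0 calls.

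The form of the TRBJ1-1 entries gave no call between heart extract and adjuvant nodes. The share of distinct entries differed by -0.372 points, the mean length by 0.00726 residues, the complete J end by 1.23 points and the share in the 20 most abundant entries by 0.559 points (heart extract minus adjuvant). The exact permutation test, two-sided, gave p = 0.514, 0.743, 0.457 and 0.629 in this order, each 0.743 after adjustment. As between MI and sham nodes, the 35 splits let no single measure pass after adjustment. Myosin, with 2 nodes, was not tested on these measures.

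In the hearts TRBJ1-1 ranked 3 to 5 of the 11 segments. Its mean share of reads was 1.89 points below that of the MI nodes, but the groups overlapped, since heart 2 (14.3%) lay within the MI range of 13.9% to 14.4%. Without heart 2 the difference was -2.88 points, and without heart 3 it was -1.23. By distinct entries the heart mean was the higher by 0.527 points. Heart 2 (12.7%) lay above the MI node range of 9.98% to 10.9%, and hearts 1 and 3 (10.2% each) lay within it. Within the TRBJ1 cluster TRBJ1-1 held 31.7%, 33.2% and 24.5% of reads in hearts 1 to 3, against 33.4%, 34.0% and 33.4% in the MI nodes.

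The heart's TRBJ1-1 reads were concentrated in few entries. Hearts 1 to 3 listed 322, 570 and 537 TRBJ1-1 entries, of which 28, 50 and 55 had 1000 or more reads and together held 96.2%, 97.6% and 97.6% of the TRBJ1-1 reads. The 20 most abundant held 92.1%, 78.5% and 75.5%, against 1.91% to 7.63% in the nodes. For the other J segments of heart 1 the 20 most abundant entries held 70.6% to 99.6% of the segment's reads, a range that includes TRBJ1-1. The concentration goes with the 100-fold smaller number of sorted cells, and its part was not tested.

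**Figure D4:**
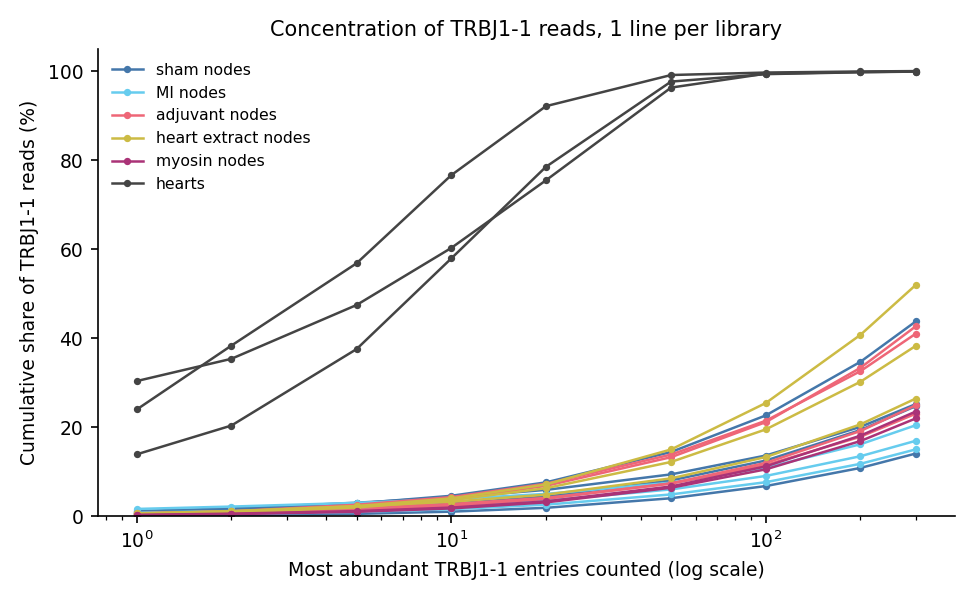
Cumulative percentage of a library's TRBJ1-1 reads (vertical axis) held by its most abundant TRBJ1-1 entries (horizontal axis, log scale), with 1 line per library. The 3 heart lines reach 75.5% to 92.1% at 20 entries, where the 16 node lines lie between 1.91% and 7.63%.

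In heart 1 the TRBV14 entry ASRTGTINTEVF held 68148 reads, 24.0% of the TRBJ1-1 reads, and was listed in none of the 16 nodes. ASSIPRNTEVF with TRBV19 followed with 40772 reads (14.4%) and was listed in 6 nodes with 3 to 218 reads, while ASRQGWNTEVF with TRBV19 (19996 reads, 7.04%) was listed in none. The first and the third entry of heart 1 were thus listed in no node library. In heart 2 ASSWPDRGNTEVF with TRBV14, which carries the TRBD1 motif DRG, held 87767 reads (13.9%) and was in no node. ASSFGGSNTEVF with TRBV14 (40747 reads, 6.46%) was listed in sham nodes 1, 2 and 3 with 164, 2 and 658 reads, and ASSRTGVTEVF with TRBV4 (40221 reads, 6.38%) in sham node 1 with 45 and MI node 3 with 43. The heart 2 entries found in nodes were thus rare there.

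In heart 3 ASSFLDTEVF with TRBV14 held 171644 reads, 30.4% of the TRBJ1-1 reads, and 7037 reads in MI node 3, with 2 reads each in adjuvant node 2 and myosin node 2. It has 10 residues, the most frequent TRBJ1-1 length of that heart, and keeps the TEVF end, which made up 49.3% of TRBJ1-1 reads in heart 3 against 20.5% and 23.4% in hearts 1 and 2. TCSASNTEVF with TRBV1 (28235 reads, 4.997%) was listed in 7 nodes with 30 to 503 reads, and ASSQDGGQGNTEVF with TRBV5 (26803 reads, 4.74%), which carries GQG, in sham node 4 with 2 reads and MI node 2 with 7. None of these 9 entries was listed in another heart. Over all their TRBJ1-1 entries, hearts 1, 2 and 3 shared 2, 1 and 1 with another heart.

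The V partners of TRBJ1-1 differed from heart to heart. TRBJ1-1 took 14.7%, 40.4% and 3.21% of TRBV4 reads in hearts 1 to 3, and 0.00353%, 4.19% and 16.1% of TRBV1 reads. Of TRBV14 reads it took 23.7%, 15.0% and 23.4%, beside the MI node values of 13.7%, 12.9% and 13.1%, and of TRBV19 reads 15.4%, 11.1% and 4.202%, beside the MI node values of 15.4%, 15.8% and 16.5%. The TRBV14 values of the hearts rest on single entries: the 2 most read held 98.4%, 98.8% and 95.9% of the TRBV14 reads with TRBJ1-1 in hearts 1 to 3, against 4.46% to 7.36% in the MI nodes. With those 2 left out of each library, a setting chosen after seeing the data that keeps all entries with other J segments, TRBJ1-1 took 0.504%, 0.206% and 1.253% of TRBV14 reads in the hearts and 12.3% to 12.8% in the MI nodes. By distinct TRBV14 entries, likewise added, it made up 20.9%, 11.3% and 21.8% in the hearts and 11.4% to 11.7% in the MI nodes. These heart shares rest on 31, 36 and 58 TRBJ1-1 entries among 148, 319 and 266 TRBV14 entries. The part of PCR and sequencing errors of the most read entries in these counts was not tested. By distinct TRBV19 entries it made up 17.0%, 12.9% and 6.53% in the hearts and 12.1% to 13.998% in the MI nodes, so that these groups overlapped. No TRBJ1-1 heart read was listed for 5 of the 22 V segments, of which TRBV23 and TRBV24 had no heart read with any J segment.

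Many heart TRBJ1-1 reads belonged to entries that a node also listed. Of the TRBJ1-1 reads of hearts 1, 2 and 3, 47.5%, 69.5% and 70.8% were of entries listed in at least 1 of the 16 nodes, through 66, 146 and 131 entries. The MI node with the same number listed the most in each case, 33.0% for heart 1, 41.5% for heart 2 and 57.7% for heart 3, where the median node listed 4.35%, 16.8% and 7.90%. The next node was sham node 3 (28.5%), MI node 1 (34.8%) and adjuvant node 2 (36.6%). An entry counted as listed whatever its reads in the node, and all its heart reads were then counted. In heart 3, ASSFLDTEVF alone (30.4% of TRBJ1-1 reads) counted for adjuvant node 2 through 2 reads there. It also counted for myosin node 2 (33.2% in all) through 2 reads, and for MI node 3 through 7037. A count of 2 reads was the lowest listed. All libraries were sequenced in 1 pool, and whether such reads were assigned to the wrong library was not tested. For reads with other J segments the same-numbered MI node was also the highest, at 39.7%, 45.0% and 41.7%. The labels do not say that equal numbers mark an animal. MI nodes also listed more entries (179014 to 291639) than the adjuvant nodes (53672 to 116112), and the part of this in the overlap was not tested.

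**Figure D5:**
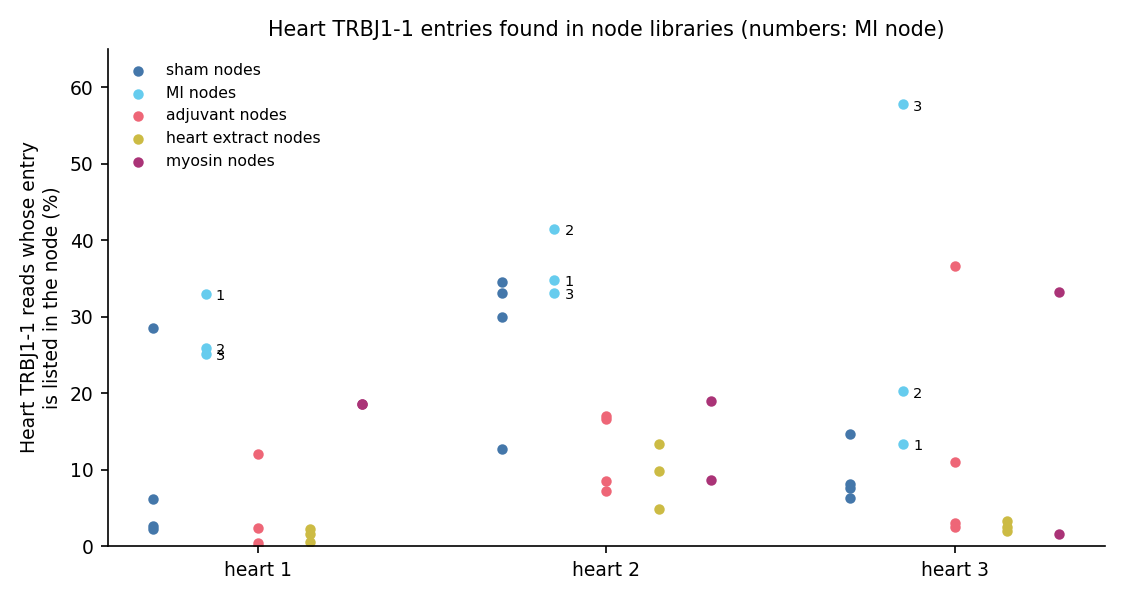
Percentage of each heart's TRBJ1-1 reads (vertical axis) whose entry is listed in a node, for 3 hearts (horizontal axis) and 16 nodes coloured by group; numerals beside MI nodes are their library numbers. The highest point of each heart is the MI node of its own number, at 33.0%, 41.5% and 57.7%.

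A small set of TRBJ1-1 entries was listed in all 16 nodes. It held 9 of the 96 entries found everywhere, or 9.38%, beside 11.1% of entries found in 1 node, 11.1% of those in 2 to 4 and 11.6% of those in 5 to 15. All 9 closed with the complete NTEVF end, which 45.3% of node TRBJ1-1 entries did, and their mean length was 11.7 residues against 11.6. By V segment 3 used TRBV5, 2 TRBV4, 2 TRBV13-2, 1 TRBV13-1 and 1 TRBV1. The 5 with the highest mean shares are those printed above, from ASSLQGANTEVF at 0.0154% ± 0.0116 of a node's reads (n = 16) to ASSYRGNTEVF at 0.0112% ± 0.00633.

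These shared entries varied widely between nodes. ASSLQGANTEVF had 413 to 1913 reads in the sham nodes and 1035 to 3611 in the adjuvant nodes, but 5 in heart extract node 3. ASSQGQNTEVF, the most read TRBJ1-1 entry of myosin node 1 with 4360 reads, had 155 in sham node 1. Together the 9 held 0.327% to 0.808% of a node's TRBJ1-1 reads. In the hearts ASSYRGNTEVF was listed once, with 4 reads in heart 2, and the other 4 of those printed were not listed. The most read TRBJ1-1 entry of a node was listed in 1 to 16 nodes. That of MI node 1, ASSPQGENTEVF with TRBV14 and 8567 reads, was listed in 1 and that of sham node 1, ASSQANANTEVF with TRBV5 and 15097 reads, in 3. That of heart extract node 2, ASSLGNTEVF with TRBV14 and 9334 reads, was listed in 9 and that of myosin node 2, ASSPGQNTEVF with TRBV14 and 2966 reads, in 10.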

How the data were processed

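Receptor beta transcripts were amplified from total RNA by multiplex PCR with gene-specific primers and sequenced on an Illumina HiSeq in 1 pool of 19 libraries, per the labels' protocols. The deposited tables hold, for each entry, a whole-number read count that the authors did not normalize; the lowest count listed was 2. Which aligner, error handling and segment reference were used is not given in the sources used here. No coordinates are given, because the tables name no build.

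The member and all lists were chosen with earlier results of these data known. Reads were summed per TRBJ segment and per V-J pair. Counts were compared with edgeR 4.0.16 in R 4.3.3 (quasi-likelihood test, robust, legacy settings, library total as offset, 5 node groups in 1 fit) over all 11 TRBJ segments or the 239 pairs with at least 10 reads in at least 3 nodes, with Benjamini-Hochberg adjustment at 0.05. DESeq2 1.42.0 was an alternative. Length, J end, distinct share and concentration were compared by exact permutation (scipy 1.17.1) after drawing each node to 7534295 reads. Named items were fixed by rule: the 6 main V partners, 2 most and 1 least like TRBJ and TRBV segments, 3 leading entries per heart, 1 per node, and 5 of those in all nodes; cluster neighbours were TRBJ1-2 to TRBJ1-5. The code was tested on simulated data. Alternatives tried were TMM factors, edgeR without legacy settings, distinct entries, entries under 10 reads left out, no filter on pairs, only the 2 groups compared, the replicate block, share of the TRBJ1 cluster, the 100 most abundant entries left out, and each library left out.

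Whether equal library numbers pair the nodes was checked from the correlation, over the 239 pairs, of deviations from group means. Heart extract and adjuvant nodes of equal number correlated at 0.119, 0.109 and 0.171, all over the limit of 0.1 set for pairing, but nodes of unequal number reached 0.262 (heart extract node 2 with adjuvant node 4), 0.130 and 0.113, and the labels name no pairing. MI and sham nodes (-0.315, 0.185 and 0.464) and myosin and adjuvant nodes (-0.192 and -0.0192) did not meet the limit. The reported fits and permutation tests of all 3 comparisons are unpaired, and the block is an alternative in each.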

Additional observations from a re-analysis of the deposited data

Results flagged for a closer look

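Of 24 groups of 4 libraries screened for a library far from the others, 2 gave one, and chance flags about 5% of such groups. TRBJ1-1 held 18.1% of all reads in adjuvant node 1, where the other adjuvant nodes lay between 15.5% and 15.8%. It also held 19.3% of TRBV19 reads in that node, where the others lay between 16.1% and 16.4%. Both values come from the same library. Without adjuvant node 1 the sham minus adjuvant difference in the read share was -2.28 points, beside -2.89 with it.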

How the results depend on the processing

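Of 181 alternative values for 20 results, 162 kept direction and side of the threshold or moved by less than the spread between libraries. For the reads of TRBJ1-1 in MI against sham nodes, the log2 fold change of 0.095 reversed to -0.013 when distinct entries were counted, and leaving out 1 library gave 0.043 to 0.16, the last without sham node 1 (edgeR adjusted p = 0.0328). The same range was -0.15 to -0.054 for heart extract and -0.12 to -0.018 for myosin, with no call. The distinct share in MI minus sham nodes (-0.0962 points) reversed to 0.821 with entries under 10 reads left out, and ran from -0.310 to 0.163 with 1 library left out, being above 0 without MI node 1 or sham node 1. Leaving out 1 library also turned the sign of the mean length (-0.0321 to 0.0137 residues) and of the complete J end (-0.770 to 0.340 points) between MI and sham nodes, and of the mean length between heart extract and adjuvant nodes (-0.00365 to 0.0279). The cause of these reversals was not tested. The heart minus MI node difference of -1.89 points became 0.527 by distinct entries and -3.83 as a share of the TRBJ1 cluster. It was -3.62 without the 100 most abundant entries, and ran from -2.88 to -1.23 with 1 library left out. Hearts listed 3156 to 5247 entries and MI nodes 179014 to 291639, so leaving out 100 took unlike parts of their libraries. Sham minus adjuvant ran from -3.46 to -2.28 points with 1 library left out and from -2.81 to -1.93 under the other settings.

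With the replicate number as a block (replicate block), the log2 fold change was 0.061 (edgeR adjusted p = 0.572) for MI, -0.15 (adjusted p = 0.204) for heart extract and -0.13 (adjusted p = 0.719) for myosin, with 0 TRBJ1-1 pairs called. The block changed no call. The site and heart contrasts carry no test and no paired analysis. Groups held 2 to 4 libraries, and what read depth limits was not tested.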
